A study of Rattus norvegicus with 15 samples.

Results

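The Roux limb (RL) of 5 Goto-Kakizaki (GK) rats after Roux-en-Y gastric bypass (RYGB), the group GK-S-30, was compared with the jejunum of 5 Wistar rats that had no operation. These are 10 of the 15 arrays of the series, with 1 array per rat, and were chosen by their sample titles. All 17336 named genes on the arrays were considered, and 13023 of them were bright enough to be tested. GK rats are a nonobese inbred strain, derived from Wistar rats, that develops type 2 diabetes spontaneously. GK-S-30 rats were operated on at 16 wk of age, with a biliopancreatic limb of 16 cm from the ligament of Treitz and an RL of 30 cm. At 14 wk postoperation a piece of 5 cm was cut from their RL, 5 cm beyond the junction with the stomach. Wistar rats of the same age gave the stretch of jejunum that starts 21 cm and ends 26 cm below that ligament. All rats were male, ate standard chow and were fasted overnight before the tissue was frozen, and no separation of the gut wall into layers is described. The other 5 arrays of the series come from GK rats that were sham-operated and pair-fed (GK-Sham-PF), with the same piece of jejunum as in Wistar rats, and their values are given beside those of single genes. Strain, diabetes and operation differ together between GK-S-30 and Wistar rats, and so does the array slide. The slides held Wistar replicates 2 to 5, Wistar replicate 1 with GK-Sham-PF replicates 1 to 3, GK-Sham-PF replicates 4 and 5 with GK-S-30 replicates 1 and 2, and GK-S-30 replicates 3 to 5. These differences cannot be told apart in this contrast.

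The jejunum absorbs most of the sugar, amino acids and fat of a meal through enterocytes, and exports fat as chylomicrons and dietary cholesterol (CHOL) with them. In RYGB the stomach is divided and the cut jejunum is joined to the small upper pouch, so that the RL carries food that has not yet met bile and pancreatic juice, which join it only where the limbs meet. Bile acids bring dietary fat and CHOL into solution and are signals of their own through the nuclear receptor FXR. Cells short of sterol release SREBP2, a transcription factor held in the endoplasmic reticulum, which turns on the genes of CHOL synthesis and uptake together.

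The 10 arrays were of similar quality. The share of probes well above background ran from 66.7% to 71.9% on the GK-S-30 arrays and from 69.1% to 74.8% on the Wistar arrays. The 75th percentile of the signal before normalization ran from 329 to 384 in GK-S-30 and from 225 to 371 in Wistar arrays, of which replicate 3 was the dimmest. Arrays of a group correlated at 0.985 to 0.992 in GK-S-30 and 0.981 to 0.994 in Wistar rats. The epithelial and enterocyte genes on the list (keratins, villin, cadherins and others, 16 of 16 tested) had a median log2 fold change of 0.06, with 3 higher and none lower.

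In the comparison of GK-S-30 with Wistar rats, limma called 3414 of 13023 tested genes (26.2%) at an adjusted p under 0.05. Of these, 1611 were higher in GK-S-30 rats (12.4% of tested genes) and 1803 were lower (13.8%). These shares are the background for the counts of each list below. A change of at least 2-fold was seen in 718 of the called genes, 408 higher and 310 lower. In 2536 genes (19.5%) the 5 GK-S-30 arrays did not overlap with the 5 Wistar arrays, and 2290 of these were called. The median absolute log2 fold change of called genes was 0.62, the median over all tested genes was -0.02, and the median standard error (SE) of a log2 fold change was 0.15. For comparison, the same model called 1151 genes (8.84%) between GK-Sham-PF and Wistar rats and 1258 (9.66%) between the 2 GK groups. Levels below are log2 of the normalized signal of a gene's probe, in arbitrary units, and can be compared between arrays but not between genes. Fold changes are log2 differences of GK-S-30 minus Wistar means and adjusted p-values are limma's. Where a gene was not well above background on any array of a group, a bound (at least N-fold) is given, which sets the brighter group's mean against each dim array's lowest signal above background, or the gene's own signal where that was higher. The same bound is given where 1 or 2 of the 5 arrays of a group were above background. An adjusted p-value beside a bound belongs to the fitted difference, which rests partly on signal below background, and does not test the bound. Such a gene entered the test only through a group in which it was bright. The RNA came from all cells of the piece, so that a change in a cell type's share and a change in RNA per cell cannot be told apart. With 1 array per rat, the p-values measure the spread between rats.

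No slide held both groups. Slide therefore entered as a block only through the GK-Sham-PF arrays that shared slides with Wistar replicate 1 and GK-S-30 replicates 1 and 2. The other Wistar and GK-S-30 arrays lay on slides without GK-Sham-PF arrays and added to the estimate of spread only. Every fold change under the block, and every count drawn from it, rests on 1 Wistar rat and 2 GK-S-30 rats. It is no slide-corrected comparison of the full groups. That fit called 237 genes, 224 of them also called without the block, with a median SE of 0.35. The sign of the fold change was the same in 3306 of the 3414 called genes (96.8%). Of the 229 called genes named below, 45 stayed called with the slide block, and the number called in that fit is given below for the main groups of genes as the count "with slide as a block".

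**Figure D1:**
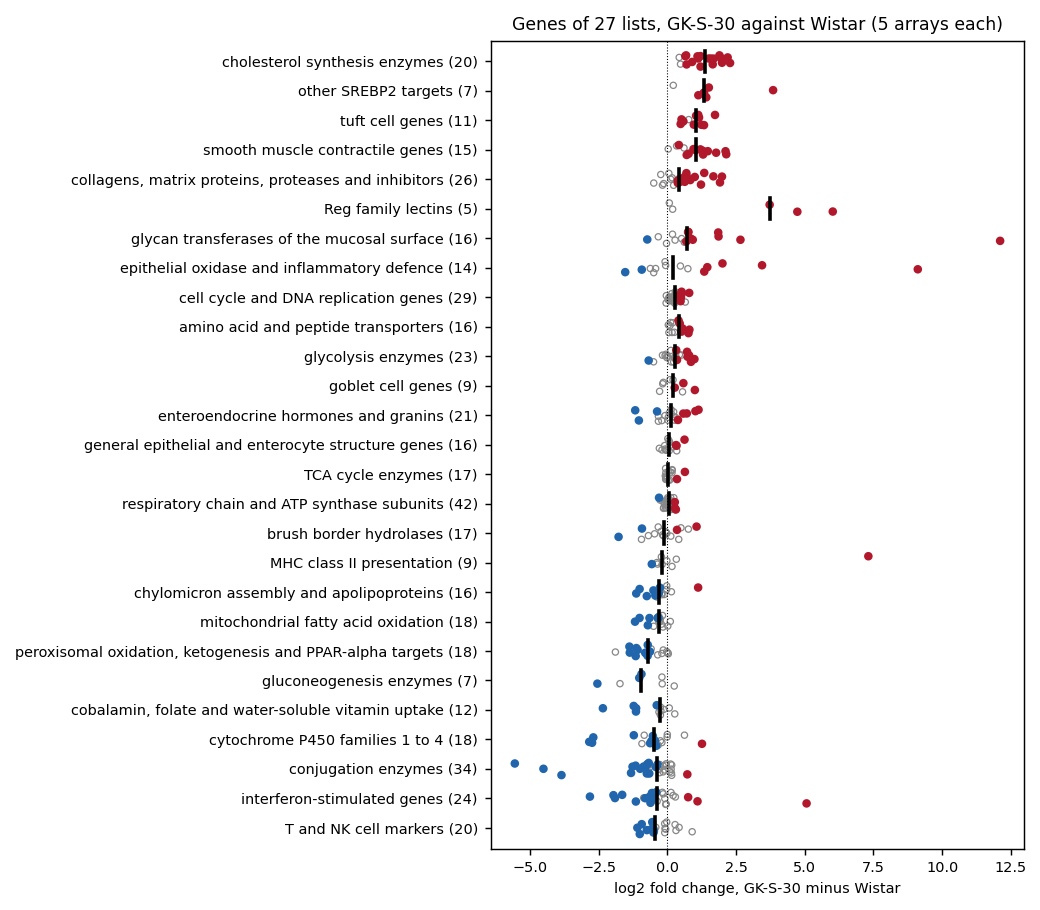
Log2 fold change of GK-S-30 minus Wistar (horizontal axis) of every tested gene on 27 of the 62 lists, with the number of tested genes in parentheses. Each point is 1 gene, red where limma called it higher, blue where lower and open where it was not called, and the black bar is the median of the list. Genes of CHOL synthesis, tuft cells and smooth muscle lie to the right of 0, and conjugation enzymes, cytochromes P450 and PPAR-alpha targets have more points to the left.

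The genes of CHOL biosynthesis rose together. Of 20 enzymes from acetyl-CoA to CHOL, 18 rose in the RL, none fell, and all 20 had a positive fold change, with a median of 1.36 on the log2 scale. The same 18 enzymes had GK-S-30 arrays that did not overlap with the Wistar arrays. None of the 20 passed the test in GK-Sham-PF against Wistar rats, and 18 were called between the 2 GK groups. With slide as a block 10 of the 20 were called and all 20 stayed positive.

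Squalene epoxidase (Sqle), the enzyme that commits squalene to sterols, rose most. Its level was 10.30, 11.22, 10.12, 10.68 and 10.49 in the Wistar arrays and 12.90, 12.78, 12.67, 13.13 and 12.75 in the GK-S-30 arrays, a log2 fold change of 2.28 ± 0.24 (SE, adjusted p = 7.69e-06), or 4.87-fold. The lowest RL array was well above the highest Wistar array. GK-Sham-PF arrays, at 11.05, 10.96, 11.28, 9.84 and 10.74, lay in the range of the Wistar arrays or close to it. HMG-CoA synthase (Hmgcs1), an early step of the pathway, was at 11.40, 11.98, 11.42, 11.98 and 11.89 in Wistar and 13.62, 13.71, 12.97, 13.44 and 13.37 in GK-S-30 arrays, with means of 11.73 ± 0.30 and 13.42 ± 0.29 (mean ± SD, n = 5 each, adjusted p = 9.39e-06).

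The enzymes between mevalonate and squalene moved with them. Isopentenyl-diphosphate isomerase (Idi1) was at 10.76, 11.75, 11.40, 10.87 and 11.17 in Wistar and 13.59, 13.27, 13.06, 13.63 and 13.38 in GK-S-30 arrays, a log2 fold change of 2.20 ± 0.22 (adjusted p = 5e-06). Farnesyl diphosphate synthase (Fdps) rose by 1.90 and squalene synthase (Fdft1) by 1.60 on the log2 scale. After squalene, lanosterol synthase (Lss) rose by 1.65, the lanosterol demethylase Cyp51 by 1.99 and the methylsterol monooxygenase Msmo1 by 1.99. Msmo1 was at 14.19, 15.21, 14.36, 14.61 and 14.43 in Wistar and 16.68, 16.53, 16.30, 16.86 and 16.35 in GK-S-30 arrays, so that here too the groups were apart. The smallest change was that of mevalonate decarboxylase (Mvd, 0.43 ± 0.21, adjusted p = 0.15), which was not called, although it was called without GK-S-30 replicate 3 (adjusted p = 0.0405). Acetyl-CoA acetyltransferase Acat2, at the entry, rose by 1.51 by its brightest probe, and its other tested probe gave 0.11.

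Of 7 further SREBP2 targets, 6 rose, with a median of 1.34, and 3 of the 7 were called with slide as a block. Acetoacetyl-CoA synthetase (Aacs), which feeds ketone bodies into lipid synthesis, was at 9.32, 10.23, 8.78, 9.81 and 9.46 in Wistar and 11.05, 10.71, 10.92, 11.26 and 11.20 in GK-S-30 arrays (1.51 ± 0.22, adjusted p = 1.67e-04), without overlap. The sterol carrier Stard4 rose from 8.89, 9.22, 8.79, 9.09 and 8.93 to 10.49, 10.23, 10.51, 10.696 and 10.08 (1.42 ± 0.12, adjusted p = 7.06e-07), also without overlap, and Insig1, which holds SREBP2 back when sterol is plentiful, by 1.34. Srebf2, the gene of SREBP2 itself, was at 8.85, 8.92, 9.02, 9.08 and 9.0 in Wistar and 8.96, 9.47, 8.84, 9.47 and 9.21 in GK-S-30 arrays. Its groups overlapped (0.22 ± 0.14, adjusted p = 0.269), and its other tested probe gave 0.56.

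**Figure D2:**
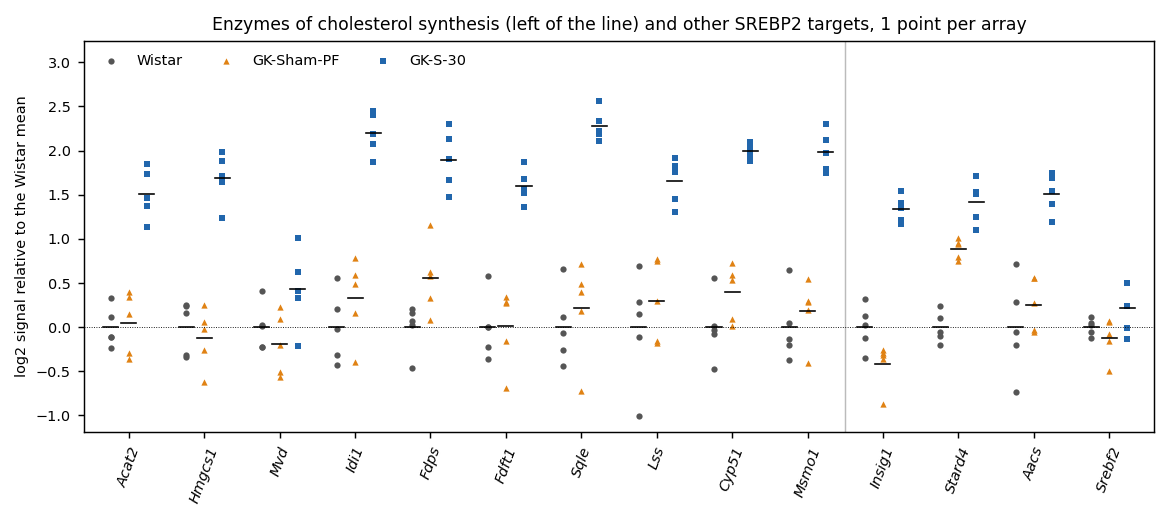
Log2 signal relative to the Wistar mean (vertical axis) of 10 of the 20 CHOL synthesis enzymes and 4 of the 7 other SREBP2 targets, with 1 point per array and the group mean as a bar, for Wistar (circles), GK-Sham-PF (triangles) and GK-S-30 (squares). The squares lie apart from the circles in 12 of the 14 genes, Sqle is highest at a mean of 2.28, and the squares of Mvd and Srebf2 overlap with the circles.

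Promoters of the CHOL genes are shown because SREBP2 acts next to other factors, among them NF-Y, which binds the letters CCAAT. The 250 bases before the start of each gene were read from RefSeq (build GRCr8), which held 15 of the 20 CHOL synthesis enzymes, and both strands were searched. CCAAT was found in 12 of the 15 (80%), beside 34.3% of all 27457 promoters in the table. The letters TCACNCCAC, a sterol regulatory element, were found in none of the 15 and in 0.976% of all promoters, and CACGTG, the E-box that SREBP proteins also bind, in 1 of the 15 (6.67%) and in 5.79% of all. A match is a description of the sequence and not of binding. The promoters of the 4 most strongly raised enzymes with an entry and a match are printed 5′ to 3′ on the gene's strand, with CCAAT, or ATTGG where it lies on the other strand, in capitals:
Idi1 (chr17:66547525-66547774, minus strand): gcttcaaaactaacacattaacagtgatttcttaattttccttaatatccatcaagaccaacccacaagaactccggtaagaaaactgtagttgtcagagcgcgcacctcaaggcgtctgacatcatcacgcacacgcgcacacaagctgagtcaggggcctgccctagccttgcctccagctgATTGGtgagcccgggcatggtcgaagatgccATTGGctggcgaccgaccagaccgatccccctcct
Msmo1 (chr16:29746863-29747112, plus strand): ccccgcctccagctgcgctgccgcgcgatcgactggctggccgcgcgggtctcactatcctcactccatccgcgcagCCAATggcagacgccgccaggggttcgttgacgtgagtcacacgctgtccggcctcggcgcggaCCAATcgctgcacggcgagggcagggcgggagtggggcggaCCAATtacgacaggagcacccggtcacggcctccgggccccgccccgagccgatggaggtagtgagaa
Fdps (chr2:176804817-176805066, minus strand): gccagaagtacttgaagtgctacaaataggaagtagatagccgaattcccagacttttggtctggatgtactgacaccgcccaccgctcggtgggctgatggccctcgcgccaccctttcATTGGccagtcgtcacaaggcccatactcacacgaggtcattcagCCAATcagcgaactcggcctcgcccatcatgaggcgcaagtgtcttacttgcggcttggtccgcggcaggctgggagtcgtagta
Hmgcs1 (chr2:53382054-53382303, plus strand): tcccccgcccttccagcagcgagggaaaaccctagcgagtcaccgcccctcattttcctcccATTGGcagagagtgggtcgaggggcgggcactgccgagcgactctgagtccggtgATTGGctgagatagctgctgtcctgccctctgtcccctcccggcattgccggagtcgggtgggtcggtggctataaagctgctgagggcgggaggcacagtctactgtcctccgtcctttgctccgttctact

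Genes that take sterol up, store it or send it out did not follow the enzymes. Of 14 tested, 2 rose and 4 fell, with a median of -0.17, and none was called with slide as a block. Scarb1, a receptor for high-density lipoprotein, was at 11.85, 12.46, 12.27, 12.57 and 12.34 in Wistar and 10.36, 11.03, 10.39, 10.55 and 10.65 in GK-S-30 arrays (-1.70 ± 0.21, adjusted p = 2.93e-05), with no overlap. Abcg8, a chain of the pump that returns plant sterols and CHOL to the lumen, fell by 0.80 on the log2 scale, the oxysterol receptor LXR-alpha (Nr1h3) by 0.57 and the lipid exporter Abca1 by 0.38. Soat1, which esterifies CHOL, rose by 0.64. Abca1 lost its call when any 1 of 7 of the 10 arrays was left out (-0.31, adjusted p = 0.0831 without GK-S-30 replicate 3), and Soat1 lost its call when any 1 of 2 of the 10 arrays was left out (0.60, adjusted p = 0.0525 without GK-S-30 replicate 3). The sterol importer Npc1l1 had a log2 fold change of -0.11 and was not called.

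Bile acid genes moved in both directions. SHP (Nr0b2), a repressor induced by FXR, fell by 2.84 on the log2 scale, from 12.63, 11.02, 11.82, 12.36 and 11.32 in Wistar to 9.25, 8.15, 8.51, 9.81 and 9.21 in GK-S-30 arrays (adjusted p = 2.17e-04). GK-Sham-PF arrays had a mean of 11.37 ± 0.91, in the Wistar range. The ileal bile acid binding protein Fabp6 rose from 7.07, 7.57, 8.24, 6.90 and 7.67 to 10.08, 9.28, 9.89, 8.30 and 10.32 (2.08 ± 0.42, adjusted p = 0.00207), and its groups did not overlap. Slc10a2, the sodium-dependent bile acid importer of the brush border, had levels of 6.23, 7.19, 6.74, 6.82 and 7.49 in Wistar and 8.63, 8.43, 7.79, 7.12 and 7.60 in GK-S-30 arrays (1.02 ± 0.30, adjusted p = 0.0194), which overlapped. GK-Sham-PF arrays were lower than both, at a mean of 4.48 ± 0.43. The basolateral exporter chain Slc51b rose by 0.65, and the bile acid receptor Gpbar1, with no GK-S-30 array well above background, was at least 1.53-fold lower (adjusted p = 0.0187). Slc10a2 lost its call when any 1 of 2 of the 10 arrays was left out (0.86, adjusted p = 0.0542 without Wistar replicate 1). Of the 7 tested bile acid genes 3 rose and 2 fell, and Slc10a2 was the 1 called with slide as a block.

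Genes that package and burn fat were mostly lower in the RL. Of 16 chylomicron and apolipoprotein genes, 8 fell and 1 rose, with a median of -0.29. Dgat2, an enzyme of triglyceride synthesis, was at 15.01, 14.59, 14.93, 14.93 and 15.10 in Wistar and 13.64, 13.64, 13.70, 13.97 and 13.95 in GK-S-30 arrays (-1.13 ± 0.14, adjusted p = 3.31e-05), so that all RL arrays were lower. Mttp, which loads lipid onto apolipoprotein B, fell by 0.51, Apoc2, the activator of lipoprotein lipase, by 1.01 and its inhibitor Apoc3 by 0.75 on the log2 scale. The other tested probe of Apoc2 gave 0.27, in the opposite direction. Apoa5 rose by 1.12. Apoc3 lost its call when any 1 of 4 of the 10 arrays was left out (-0.66, adjusted p = 0.0741 without Wistar replicate 5), and Apoa5 lost its call when any 1 of 2 of the 10 arrays was left out (0.92, adjusted p = 0.0579 without GK-S-30 replicate 3). None of the 16 was called with slide as a block.

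Fatty acid uptake genes were divided. The acyl-CoA synthetase Slc27a2, which activates very long chain fatty acids, was at 10.67, 7.41, 6.24, 11.87 and 11.55 in Wistar and 4.45, 5.36, 4.86, 4.22 and 4.78 in GK-S-30 arrays. Wistar replicates 2 and 3 were far below the other Wistar arrays and still above every RL array (-4.82 ± 0.88, adjusted p = 9.43e-04). The fatty acid binding protein Fabp2, one of the most abundant proteins of jejunal enterocytes, fell from 17.99 ± 0.07 to 17.71 ± 0.05 (adjusted p = 0.0133). The synthetases Acsl3 and Acsl4 rose by 0.80 and 0.89, and Acsl4 lost its call when any 1 of 6 of the 10 arrays was left out (0.64, adjusted p = 0.106 without GK-S-30 replicate 1). Among 14 genes of fatty acid synthesis and desaturation 4 rose and none fell (28.6% called, beside 26.2% of all tested genes). The desaturase Scd2 changed most, from 8.30, 8.32, 7.99, 8.40 and 8.36 to 11.54, 10.60, 10.10, 12.12 and 10.77 (2.75 ± 0.31, adjusted p = 1.54e-05), and its 2 other tested probes gave 1.14 and 1.55. Fads1, a desaturase of polyunsaturated fatty acids, rose by 1.71 and the elongase Elovl1 by 0.74. Fasn and Acaca, the enzymes that make the fatty acid chain, had log2 fold changes of 0.45 and -0.07 and were not called.

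Genes of mitochondrial and peroxisomal oxidation fell where they were called. Of 18 genes of mitochondrial fatty acid oxidation 6 fell and none rose (median -0.32). Decr1, which handles unsaturated fatty acids, fell by 1.17, the thiolase Acaa2 by 1.01, the hydratase Echs1 by 0.71 and the dehydrogenase Hadh by 0.65, for which the other tested probe gave -0.32. Of 18 peroxisomal, ketogenic and PPAR-alpha target genes 10 fell and none rose, with a median of -0.71. The ketone body dehydrogenase Bdh1 fell from 10.47 ± 0.12 to 9.09 ± 0.15 (adjusted p = 9.46e-07) and was at 8.82 ± 0.26 in GK-Sham-PF rats. The peroxisomal thiolase Acaa1b was at 14.01, 12.73, 13.28, 13.93 and 13.86 in Wistar and 11.31, 12.19, 12.89, 12.14 and 12.45 in GK-S-30 arrays, which overlapped (-1.37 ± 0.27, adjusted p = 0.00197). The omega-hydroxylase Cyp4a1 fell by 1.13, the lipoprotein lipase inhibitor Angptl4 by 1.08 and the receptor Ppara, which controls this group in fasting, by 0.77. Bdh1 was the 1 gene of both lists that was called with slide as a block.

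Genes of glycolysis leaned higher and those of gluconeogenesis lower. Of 23 glycolysis genes 7 rose and 1 fell (median 0.30), and of 7 gluconeogenesis genes 3 fell and none rose (median -0.94). With slide as a block no gene of either list was called, and the medians were 0.44 and -0.71. Phosphoenolpyruvate carboxykinase (Pck1), the entry to gluconeogenesis, was at 12.49, 12.10, 11.83, 12.64 and 12.80 in Wistar and 8.95, 10.31, 11.11, 8.66 and 10.11 in GK-S-30 arrays (-2.54 ± 0.42, adjusted p = 4.3e-04). All RL arrays were lower than all Wistar arrays, and GK-Sham-PF arrays were at 12.36 ± 0.67. Fructose bisphosphatase (Fbp1) fell by 0.94 with very little spread (RL arrays 14.07, 14.11, 14.08, 14.0 and 14.05, Wistar arrays 14.91, 15.15, 15.11, 14.96 and 14.89, adjusted p = 7.43e-07). The glucose 6-phosphate carrier Slc37a4 fell by 1.02, and its partner glucose 6-phosphatase (G6pc1) was at 12.73, 10.33, 11.08, 11.58 and 11.42 in Wistar and 6.32, 9.44, 11.43, 11.23 and 10.11 in GK-S-30 arrays. G6pc1 was not called (-1.72 ± 0.76, adjusted p = 0.108), and without GK-S-30 replicate 1 its fold change was -0.87.

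On the glycolytic side the aldolases Aldoc and Aldoa rose by 0.99 and 0.86, the enolase Eno2 by 0.80 and the hexokinases Hk1 and Hk2 by 0.74 and 0.72. Hk2 lost its call when any 1 of 6 of the 10 arrays was left out (0.56, adjusted p = 0.0866 without Wistar replicate 5). Ketohexokinase (Khk), which traps fructose, fell by 1.14 (adjusted p = 4.23e-04). The glucose transporter GLUT1 (Slc2a1) was at 10.43, 10.50, 10.23, 10.48 and 10.31 in Wistar and 12.61, 11.92, 10.98, 11.06 and 11.49 in GK-S-30 arrays (1.22 ± 0.23, adjusted p = 0.00134), without overlap, and was also called with slide as a block. GLUT4 (Slc2a4) rose by 0.74, but its other tested probe gave 0.34 and the slide block 0.01. The transporters of the brush border and its base, SGLT1 (Slc5a1), GLUT5 (Slc2a5) and GLUT2 (Slc2a2), had log2 fold changes of -0.04, -0.12 and -0.62 and were not called. Foxo1, a transcription factor restrained by insulin, rose by 0.61, the growth factor binding protein Igfbp3 fell by 1.0 and the receptor Glp2r by 0.58, and Glp2r lost its call when any 1 of 6 of the 10 arrays was left out (-0.48, adjusted p = 0.113 without GK-S-30 replicate 5). Of 18 insulin, IGF and incretin genes 1 rose and 2 fell.

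The energy-producing core changed little. Of 17 TCA cycle enzymes 2 rose, led by citrate synthase (Cs, 14.79, 14.98, 14.83, 15.01 and 14.65 in Wistar and 15.40, 15.54, 15.26, 15.71 and 15.53 in GK-S-30 arrays, 0.64 ± 0.10, adjusted p = 1.98e-04), and of 42 subunits of the respiratory chain and ATP synthase 3 rose and 1 fell, with medians of 0.03 and 0.06. Amino acid and peptide transporters leaned upward, with 6 of 16 higher, none lower and a median of 0.43. The importers Slc6a14, Slc1a1 and Slc1a5 rose by 0.80, 0.77 and 0.55, and the peptide transporter Slc15a1 by 0.51. Slc15a1 lost its call when any 1 of 3 of the 10 arrays was left out (0.41, adjusted p = 0.0636 without GK-S-30 replicate 3). Of 22 enzymes of citrulline, arginine and glutamine metabolism 4 fell and 1 rose. Ornithine aminotransferase (Oat), which makes the citrulline precursor ornithine from glutamate, fell from 15.96, 16.11, 16.04, 15.74 and 16.0 to 14.57, 14.75, 14.92, 14.98 and 14.88 (-1.15 ± 0.12, adjusted p = 7.25e-06), Aldh18a1 by 0.91 and Arg2 by 0.67. No gene of these 4 lists was called with slide as a block.

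Digestive enzymes of the brush border showed no common direction, with 2 of 17 higher and 2 lower. Enpp7, the alkaline sphingomyelinase that works with bile salts, was at 12.31, 11.78, 11.92, 11.86 and 12.26 in Wistar and 8.94, 9.58, 11.70, 10.31 and 10.72 in GK-S-30 arrays (-1.77 ± 0.39, adjusted p = 0.00373). RL replicate 3 lay close to the Wistar arrays, and replicates 1 and 2 lowest. The peptidase Naaladl1 fell by 0.92, the meprin chain Mep1b rose by 1.06 and Dpp4, the protease that inactivates incretins, by 0.35, for which the other tested probe gave 0.0033. Naaladl1 lost its call when any 1 of 3 of the 10 arrays was left out (-0.81, adjusted p = 0.0579 without Wistar replicate 5). Sucrase-isomaltase (Si) and lactase (Lct) had log2 fold changes of -0.06 and -0.94 and were not called.

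Genes for vitamins and minerals included several strong decreases. Cubilin (Cubn), the receptor for cobalamin bound to intrinsic factor, was at 13.11, 12.39, 12.45, 12.76 and 13.63 in Wistar and 7.84, 9.42, 12.20, 11.56 and 11.59 in GK-S-30 arrays (-2.34 ± 0.66, adjusted p = 0.0164). Every RL array was lower, and they were spread far more widely than the Wistar arrays. GK-Sham-PF arrays were at 12.73 ± 0.66. The folate carrier Slc46a1 fell by 1.22, from 12.91, 12.63, 12.29, 12.86 and 12.99 in Wistar to 10.74, 11.37, 12.06, 11.99 and 11.42 in GK-S-30 arrays (adjusted p = 7.98e-04), and the ascorbate carrier Slc23a2 fell by 1.14, both without overlap. In all, 5 of 12 vitamin genes fell and none rose (median -0.28), and Cubn was 1 of 2 called with slide as a block.

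Calbindin-D9k (S100g), the calcium buffer that vitamin D induces in enterocytes, fell from 13.99, 13.95, 13.87, 14.17 and 14.38 to 12.24, 12.67, 12.08, 12.81 and 12.27 (-1.66 ± 0.16, adjusted p = 3.11e-06). The calcium pump Atp2b1 rose by 0.92 and the phosphate carrier Slc20a1 by 0.89, and the vitamin D receptor Vdr was at -0.31, not called. Among 11 iron genes 2 rose and 2 fell. The transferrin receptor Tfrc was at 11.49, 11.59, 11.19, 11.56 and 11.55 in Wistar and 13.51, 12.23, 13.07, 11.58 and 13.23 in GK-S-30 arrays (1.25 ± 0.28, adjusted p = 0.00388), ferritin heavy chain (Fth1) fell by 0.55, and heme oxygenase (Hmox1) rose by 1.09. The zinc and iron carrier Slc39a14 fell by 1.0, and its 3 other tested probes gave -0.38 to -0.63. Hmox1 lost its call when any 1 of 6 of the 10 arrays was left out (0.85, adjusted p = 0.0921 without Wistar replicate 3), and the slide block turned its sign (-0.27). The iron importer Slc11a2 and exporter Slc40a1 had log2 fold changes of 0.42 and 0.31 and were not called. Of 15 retinoid genes 5 fell and 2 rose (median -0.44), led by the retinol dehydrogenase Rdh7 (12.55, 12.19, 12.43, 12.64 and 12.33 in Wistar and 8.30, 10.12, 9.94, 9.30 and 8.97 in GK-S-30 arrays, -3.10 ± 0.31, adjusted p = 3.96e-06) and by Aldh1a1 (-1.32), which makes retinoic acid. Rdh7 was at 10.19 ± 0.52 in GK-Sham-PF rats.

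Detoxification genes were among the most strongly lowered. Of 34 conjugation enzymes 15 fell and 1 rose (median -0.39), 9 of 18 cytochromes P450 fell and 1 rose (median -0.49), and 7 of 16 alcohol, aldehyde and aldo-keto dehydrogenases fell and 3 rose. The glucuronosyltransferase Ugt2b15 was at 9.29, 9.56, 8.88, 9.50 and 9.05 in Wistar and 4.13, 4.10, 3.41, 3.58 and 3.33 in GK-S-30 arrays, of which 2 of 5 were above background, so that it was at least 44.4-fold lower (adjusted p = 1.18e-10), and at 5.89, 5.83, 5.35, 5.16 and 6.14 in GK-Sham-PF arrays, between the other groups and apart from both. The epoxide hydrolase Ephx2, which clears signaling epoxides of fatty acids, followed the same order, with 9.47 ± 0.18 in Wistar rats, 6.01 ± 0.29 in sham-operated GK rats and 4.96 ± 0.30 in GK-S-30 rats (-4.51 ± 0.16 for GK-S-30 minus Wistar, adjusted p = 5.11e-11). Ugt2a3 was well above background on all 5 Wistar arrays and on no GK-S-30 array. Glutathione transferase Gstm3 fell by 1.32 while Gstm4 rose by 0.73. Between GK-Sham-PF and Wistar rats 17 of the 34 conjugation enzymes were called, and 6 between the 2 GK groups. Members of the Ugt2b, Gstm and Cyp2b families are close in sequence, and their probes may share signal.

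The drug-metabolizing Cyp2b2 fell by 2.74 and Cyp2b1 fell by 2.69 on the log2 scale. Cyp2b2 was at 16.59, 13.84, 15.14, 15.88 and 16.55 in Wistar and 10.97, 12.21, 14.44, 13.69 and 13.0 in GK-S-30 arrays (adjusted p = 0.00319), so that the lowest Wistar array lay within the RL range. Cyp3a18 was at 13.16, 12.80, 12.51, 13.16 and 13.05 in Wistar and 8.79, 9.70, 11.19, 10.27 and 10.54 in GK-S-30 arrays (-2.84 ± 0.36, adjusted p = 4.92e-05) and at 10.29 ± 0.56 in GK-Sham-PF rats. Cyp2j4, an arachidonic acid epoxygenase of the gut, fell by 1.22, and Cyp2s1 rose by 1.26. GK-S-30 replicate 1 had the lowest level in Cyp2b1, Cyp2b2, Cyp2j4 and Cyp3a18. The aldose reductase relative Akr1b8 fell from 15, 14.50, 13.98, 15.10 and 14.73 to 8.70, 9.07, 9.16, 9.32 and 9.85 (-5.44 ± 0.23, adjusted p = 2.99e-10), and GK-Sham-PF arrays were at 9.56 ± 0.31. Its relative Akr1b10 was above background on 1 of 5 Wistar and 4 of 5 GK-S-30 arrays and at least 1.37-fold higher, and the slide block gave 0.46 on the log2 scale (adjusted p = 0.479). Adh4 was at least 8.77-fold higher with overlap of the groups, since its Wistar levels ran from 1.13 to 7.57 and 2 of 5 Wistar arrays were above background. With slide as a block 3 of the 34 conjugation enzymes, Cyp2b2, Cyp3a18 and Akr1b8 were called, all lower.

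Among 17 genes of local steroid metabolism 8 fell and 2 rose. Steroid 5-alpha-reductase (Srd5a1) fell by 1.29, the dehydrogenase Hsd17b6 from 12.19 ± 0.26 to 10.96 ± 0.23 (adjusted p = 2.82e-05) and the glucocorticoid-induced gene Tsc22d3 by 0.90. Redox genes were mixed, with 6 of 21 higher and 4 lower. Glutathione peroxidase 2 (Gpx2), the epithelial form of the enzyme, was at 9.73, 10.13, 9.47, 9.86 and 9.83 in Wistar and 14.30, 13.80, 14.15, 13.93 and 13.94 in GK-S-30 arrays (4.22 ± 0.24, adjusted p = 7.52e-09), and its other tested probe gave 1.96. GK-Sham-PF arrays were at 11 ± 0.62. Transketolase (Tkt) rose by 0.81, sulfiredoxin (Srxn1) by 0.71 and thioredoxin (Txn1) by 0.87, for which the other tested probe gave -0.26. Catalase (Cat) fell by 0.49. Of 28 genes of endoplasmic reticulum and amino acid stress 6 rose and none fell (21.4% called, beside 26.2% of all tested genes). Among those that rose were Sdf2l1 (0.91), Creld2 (0.83), asparagine synthetase (Asns, 0.81) and Psph (0.79). The sensor targets Hspa5 and Ddit3 had fold changes of 0.00 and 0.24 and were not called.

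Genes of mucosal defense held several of the largest increases. Of 5 lectins of the Reg family 3 rose (median 3.72). Reg3g, a secreted lectin that kills Gram-positive bacteria, was at 9.25, 10.16, 11.49, 10.92 and 10.77 in Wistar and 16.16, 16.27, 16.88, 16.60 and 16.78 in GK-S-30 arrays (6.02 ± 0.96, adjusted p = 3.31e-04), or 64.9-fold. The RL arrays lay within 1 unit of each other and far above the Wistar arrays. GK-Sham-PF arrays were at 10.08, 11.21, 14.93, 11.10 and 16.55, so that 2 of them reached toward the RL level and 3 lay at the Wistar level. Reg3b rose from 13.10 ± 0.89 to 17.83 ± 0.24 (adjusted p = 8.88e-04), with a GK-Sham-PF mean of 15.08 ± 2.44. Reg1a, a growth factor of regenerating epithelium, was at 7.46, 8.47, 7.71, 9.52 and 8.32 in Wistar and 12.82, 12.89, 11.96, 10.05 and 12.37 in GK-S-30 arrays, where replicate 4 was the lowest (3.72 ± 0.63, adjusted p = 5.15e-04). GK-Sham-PF arrays were at 7.01 ± 1.30. The slide block left none of the Reg genes called, with fold changes of 5.21 for Reg3g, 4.96 for Reg3b and 4.60 for Reg1a.

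Duox2, an oxidase that releases hydrogen peroxide at the epithelial surface, rose from 5.29, 5.71, 5.60, 5.45 and 4.88 to 14.83, 15.61, 14.17, 13.71 and 14.19 (9.11 ± 0.50, adjusted p = 6.84e-09), or 554-fold. GK-Sham-PF arrays lay between, at 7.71, 7.50, 8.39, 10.41 and 7.14, and the call held with slide as a block (9.02, adjusted p = 0.0016). Of the calprotectin chains, which phagocytes carry, S100a9 rose by 2.01, S100a8, with 1 of 5 Wistar arrays above background, was at least 3.7-fold higher, and GK-Sham-PF means were at or above the RL means (5.58 ± 0.36 against 5.25 ± 1.03 for S100a8). The alarmin Il33 rose by 1.45 and the cytokine Il18 from 10.78 ± 0.23 to 12.13 ± 0.17 (adjusted p = 1.99e-06). The chemokine Ccl20 and the cytokine Il1b fell by 1.53 and 0.93. In all, 5 of 14 genes of epithelial oxidases and inflammation rose and 2 fell.

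Sugar-transferring enzymes of the mucosal surface leaned upward, with 9 of 16 higher, 1 lower and a median of 0.72. St6galnac1, which adds sialic acid to the first sugar of mucins, gave the largest fold change of the genes described here. Its level was 2.33, 1.26, 1.31, 1.26 and 1.25 in Wistar, where it was not well above background on any array, and 13.09, 13.90, 13.87, 13.37 and 13.70 in GK-S-30 arrays. It was therefore at least 1232-fold higher in the RL (adjusted p = 7.95e-15). GK-Sham-PF arrays stood at 14.21, 14.15, 14.28, 14.17 and 13.71, level with the RL. The sialyltransferase St3gal4 rose from 6.17, 6.56, 6.72, 6.04 and 6.41 to 9.61, 9.08, 9.09, 8.51 and 8.91 (2.66 ± 0.20, adjusted p = 2.15e-07), the mucin branching enzyme Gcnt3 from 11.37 ± 0.17 to 13.23 ± 0.28, and the core enzyme B3gnt6, above background on 2 of 5 Wistar arrays, was at least 3.45-fold higher, at 5.36 ± 0.21. GK-Sham-PF means were 7.73 ± 0.32, 12.34 ± 0.21 and 5.40 ± 0.24. St6gal1, which sialylates N-glycans, fell by 0.73. St6galnac1, St3gal4, Gcnt3 and B3gnt6 were the 4 called with slide as a block.

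**Figure D3:**
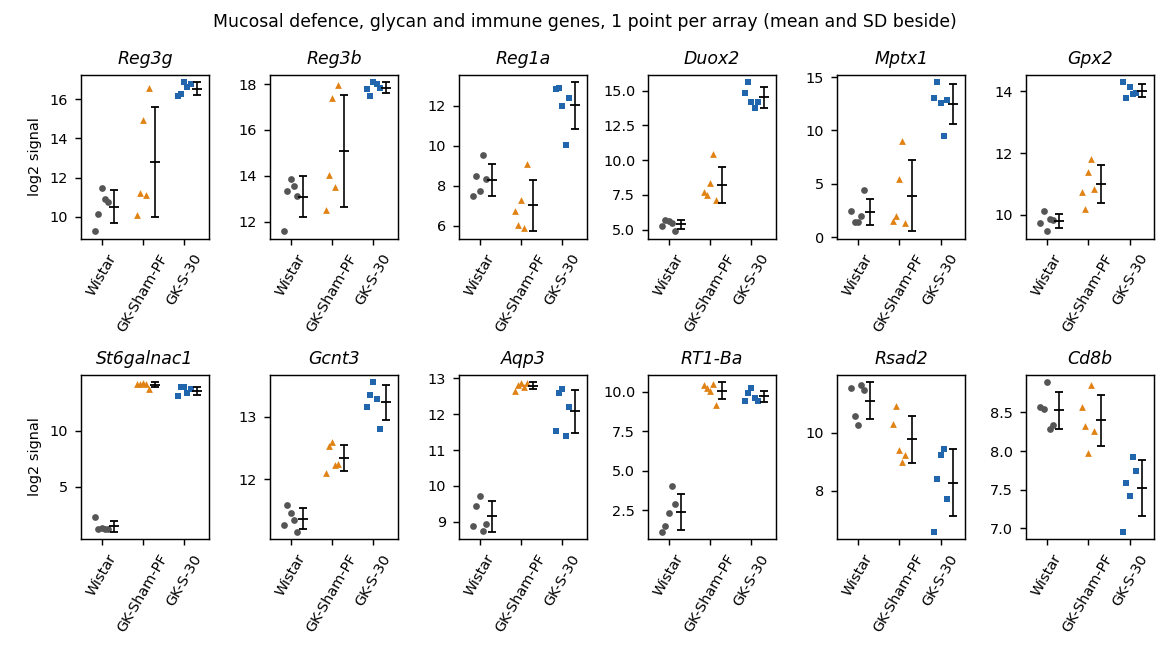
Log2 signal (vertical axis, a scale of its own in each panel) of 12 genes of defense, glycans, water transport and immunity, with 1 point per array and the mean and SD of 5 arrays beside. Reg3g, Reg1a and Mptx1 are high in all GK-S-30 arrays, St6galnac1, Aqp3 and RT1-Ba are high in both GK groups, and Rsad2 and Cd8b are lowest in GK-S-30 arrays.

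The goblet cell genes that were called rose, but most were not called. Clca1, a protein of secreted mucus, was at 15.63, 15.49, 15.29, 15.54 and 15.54 in Wistar and 16.73, 16.63, 16.54, 15.95 and 16.66 in GK-S-30 arrays (1.0 ± 0.17, adjusted p = 5.25e-04), Agr2, which folds mucins, rose by 0.58, and the trefoil peptide Tff3 by 0.27, while the mucin Muc2 was at 0.10 and not called. Of 9 goblet genes 3 rose and none fell (33.3% called, beside 26.2% of all tested genes). Tff3 lost its call when any 1 of 3 of the 10 arrays was left out (0.23, adjusted p = 0.0646 without Wistar replicate 2). Of 6 Paneth cell and antimicrobial genes lysozyme (Lyz2) and phospholipase Pla2g2a fell by 0.51 and 0.67, while the immunoglobulin transporter Pigr rose from 12.11, 12.27, 12.07, 12.68 and 12.03 to 13.50, 13.42, 13.01, 12.88 and 13.29 (0.99 ± 0.16, adjusted p = 3.24e-04). Pla2g2a lost its call without GK-S-30 replicate 1 (-0.56, adjusted p = 0.0507). With slide as a block none of these genes was called.

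Tuft cells, chemosensory epithelial cells that answer parasites and succinate, had the highest share of called genes among the cell type lists, with 10 of 11 higher and a median of 1.05. The succinate receptor Sucnr1 was at 4.16, 4.17, 3.78, 4.40 and 4.15 in Wistar and 5.45, 6.73, 5.73, 5.64 and 5.79 in GK-S-30 arrays (1.73 ± 0.30, adjusted p = 5.52e-04). The cytoskeletal Avil rose from 9.32, 9.49, 8.63, 9.87 and 9.22 to 10.33, 11.08, 10.69, 10.17 and 10.93 (1.34 ± 0.38, adjusted p = 0.0176), also without overlap. The marker kinase Dclk1 rose by 1.15, the channel Trpm5 by 1.24, the interleukin 25 receptor chain Il17rb by 1.12 and the transcription factor Pou2f3, on which the lineage depends, by 1.05, for which the other tested probe gave -0.01. None of the 11 passed the test in GK-Sham-PF against Wistar rats, and 10 were called between the 2 GK groups. Trpm5 lost its call when any 1 of 7 of the 10 arrays was left out (0.96, adjusted p = 0.109 without Wistar replicate 3). With slide as a block none was called, 9 of 11 were positive and the median was 0.49.

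Enteroendocrine genes went both ways, with 5 of 21 higher and 3 lower. Secretin (Sct), the hormone of acid sensing, was at 12.49, 12.41, 12.81, 12.49 and 12.68 in Wistar and 13.10, 13.26, 14.09, 13.58 and 13.95 in GK-S-30 arrays (1.02 ± 0.19, adjusted p = 0.00119). The substance P gene Tac1 rose from 9.39 ± 0.07 to 10.53 ± 0.09 (adjusted p = 4.4e-05), the granin Scg2 by 0.71 and the endocrine progenitor factor Neurog3 by 0.58, for which the slide block gave -0.12. Ghrelin (Ghrl) fell by 1.17, peptide YY (Pyy) by 1.03 and somatostatin (Sst) by 0.37. Ghrl was at 10.87, 10.74, 10.48, 11.48 and 9.94 in Wistar and 9.41, 9.71, 9.13, 10.06 and 9.36 in GK-S-30 arrays, which overlapped at 1 array of each. Pyy lost its call when any 1 of 9 of the 10 arrays was left out (-0.81, adjusted p = 0.112 without Wistar replicate 3), Scg2 lost its call when any 1 of 6 of the 10 arrays was left out (0.61, adjusted p = 0.0886 without GK-S-30 replicate 3), and Neurog3 lost its call when any 1 of 4 of the 10 arrays was left out (0.49, adjusted p = 0.0646 without Wistar replicate 5). Proglucagon (Gcg), Cck and Gip had log2 fold changes of 0.03, 0.29 and -0.33 and were not called, and no hormone gene was called with slide as a block.

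Cell cycle genes had mostly positive fold changes. Of 29 tested, 6 rose and none fell (20.7% called, beside 26.2% of all tested genes), and 27 were positive (median 0.27). Of all tested genes 12.4% were called higher and 13.8% lower. The mean of the list, relative to the Wistar mean, was 0.63 and 0.47 on GK-S-30 replicates 1 and 5 and -0.01, 0.13 and 0.17 on replicates 2, 3 and 4, against -0.18 to 0.15 on the Wistar arrays. Ribonucleotide reductase Rrm2 rose by 0.80, thymidylate synthase (Tyms) by 0.52, the kinase Ttk by 0.54 (other tested probe 0.21) and cyclin Ccnb2 from 8.37 ± 0.17 to 8.87 ± 0.22 (adjusted p = 0.00386). Among 20 crypt, Notch and Wnt genes 3 fell and 1 rose. Ascl2, a factor of intestinal stem cells, was at 11.25, 10.16, 10.68, 10.49 and 10.20 in Wistar and 9.24, 9.23, 9.85, 9.40 and 9.69 in GK-S-30 arrays (-1.08 ± 0.20, adjusted p = 0.00109). The slide block gave -2.41. That value rests on Wistar replicate 1, the highest Wistar array, and GK-S-30 replicates 1 and 2, the lowest RL arrays, and is no independent result. Ephb2 fell by 0.45, with -0.13 by its other tested probe, the Notch target Hes1 fell by 0.35, and Prom1 rose by 0.49, with 0.18 by its other probe. Ephb2 lost its call when any 1 of 9 of the 10 arrays was left out (-0.38, adjusted p = 0.112 without GK-S-30 replicate 3), and Hes1 lost its call when any 1 of 7 of the 10 arrays was left out (-0.30, adjusted p = 0.102 without Wistar replicate 4). The stem cell receptor Lgr5 was at -0.52 and Olfm4 at 0.26, and neither was called. Keratin 19 (Krt19) rose by 0.63, the growth factor Nrg1 by 1.16, and amphiregulin (Areg) fell from 9.99, 10.24, 10.25, 10.30 and 10.705 to 9.32, 9.20, 9.27, 9.19 and 9.28 (-1.05 ± 0.17, adjusted p = 3.39e-04). Nrg1 lost its call when any 1 of 5 of the 10 arrays was left out (0.95, adjusted p = 0.0966 without GK-S-30 replicate 5).

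Water and ion transport included 1 large change. The aquaglyceroporin Aqp3 was at 8.89, 9.45, 9.73, 8.73 and 8.92 in Wistar and 11.53, 12.59, 12.71, 11.38 and 12.21 in GK-S-30 arrays (2.94 ± 0.25, adjusted p = 7.74e-07), without overlap, and at 12.64, 12.81, 12.88, 12.76 and 12.88 in GK-Sham-PF arrays, which were as high as the highest RL arrays. Its call held with slide as a block (3.13, adjusted p = 0.036). Aqp7 rose by 0.83, carbonic anhydrase Car4 by 0.70, the sodium channel chain Scnn1a by 0.69 (other tested probe 0.34), and the potassium channel chain Kcne3 fell by 1.15. In all, 4 of 24 rose and 1 fell. Of 13 tight junction genes 3 fell and 1 rose. Cldn15, which forms sodium pores between jejunal cells, fell by 0.64 and occludin (Ocln) by 0.31, for which the other tested probe gave 0.16, and Marveld2 rose by 0.60.

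Immune genes are given by cell type. Of 20 T and NK cell markers 9 fell and none rose (median -0.45). Cd8b, a chain of the cytotoxic T cell coreceptor, was at 8.57, 8.54, 8.89, 8.28 and 8.34 in Wistar and 6.96, 7.58, 7.41, 7.92 and 7.74 in GK-S-30 arrays (-1.0 ± 0.19, adjusted p = 0.00121), without overlap. The chemokine Ccl5 fell from 14.06 ± 0.15 to 12.97 ± 0.40 (adjusted p = 0.00227), the receptor chain Cd3e by 0.55, Il7r by 0.75 and Itgae, the integrin that anchors T cells in the epithelium, by 0.93 (other tested probe -0.15). Il7r lost its call when any 1 of 7 of the 10 arrays was left out (-0.64, adjusted p = 0.106 without GK-S-30 replicate 3). Granzymes Gzma and Gzmb were at 0.28 and 0.43 and not called. The mean level of the list, relative to the mean of all 15 arrays, ran from -0.56 to 0.03 in GK-S-30 and from -0.16 to 0.26 in Wistar arrays, so that the groups overlapped. No T or NK cell marker was called with slide as a block.

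Of 8 B and plasma cell genes 5 rose and 2 fell. The mean of the list, relative to the Wistar mean, ran from -0.17 to 0.43 in GK-S-30 and from -0.14 to 0.13 in Wistar arrays, which overlapped. Mzb1, a chaperone of antibody secretion, was at 8.68, 8.60, 8.78, 8.90 and 9.0 in Wistar and 10.34, 9.95, 10.03, 9.31 and 10.18 in GK-S-30 arrays (1.17 ± 0.17, adjusted p = 1.23e-04). The B cell receptor chains Cd79b and Cd79a rose by 1.30 and 0.95 and the coactivator Pou2af1 by 0.84, while the B cell lectin Cd22 fell by 1.5 and Fcrla by 1.11, the latter with 0.52 under the slide block. Fcrla lost its call when any 1 of 7 of the 10 arrays was left out (-1.03, adjusted p = 0.0801 without GK-S-30 replicate 1). GK-Sham-PF means of Cd79b and Cd79a were 7.63 ± 0.76 and 5.71 ± 0.46, against RL means of 7.96 ± 0.21 and 5.84 ± 0.30. Of 14 myeloid markers 5 fell and 1 rose. The integrin chain Itgam fell from 7.07, 6.72, 6.85, 6.86 and 7.41 to 5.68, 5.01, 5.07, 5.07 and 5.34 (-1.75 ± 0.21, adjusted p = 2.46e-05) and was at 4.90 ± 0.47 in GK-Sham-PF rats, the mannose receptor Mrc1 fell by 0.72, and Adgre1 rose by 0.42. Adgre1 lost its call when any 1 of 2 of the 10 arrays was left out (0.33, adjusted p = 0.053 without GK-S-30 replicate 1). Of 13 mast cell genes 3 fell, among them the receptor chain Ms4a2 (-1.10) and the chymase Cma1 (-1.04). The chemokine Ccl24, which attracts eosinophils, fell from 8.15 ± 0.10 to 6.99 ± 0.46 and Ccl28, which draws IgA cells to mucosa, from 9.59 ± 0.20 to 8.48 ± 0.24 (adjusted p = 1.98e-04 and 3.31e-04).

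Among 9 genes of MHC class II presentation, 1 was higher and 1 lower. RT1-Ba, a chain of an MHC class II molecule of the rat, was at 1.16, 1.53, 2.33, 4.07 and 2.91 in Wistar, where 1 of 5 arrays was above background, and 9.44, 9.93, 10.23, 9.58 and 9.39 in GK-S-30 arrays, at least 77.5-fold higher (adjusted p = 1.37e-08). GK-Sham-PF arrays were at 10.41, 10.23, 10.06, 10.46 and 9.17. Its partner RT1-Bb was at 0.33 and the invariant chain Cd74 at -0.22, and neither was called, while RT1-DOb fell by 0.56. Both GK groups were high, and RT1-Ba was also called with slide as a block. The probes of RT1 genes may share signal, since the genes are close in sequence. RT1-DOb lost its call when any 1 of 7 of the 10 arrays was left out (-0.46, adjusted p = 0.0844 without GK-S-30 replicate 5).

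More interferon-stimulated genes fell than rose. Of 24 tested, 11 fell and 3 rose (median -0.39). The mean of the list, relative to the Wistar mean, was -0.64, -0.49 and -0.46 on GK-S-30 replicates 1, 2 and 5 and 0.04 and 0.05 on replicates 3 and 4, which lay in the Wistar range of -0.18 to 0.13. The antiviral enzyme Rsad2 was at 11.53, 10.57, 10.28, 11.66 and 11.47 in Wistar and 6.60, 8.41, 9.24, 9.45 and 7.73 in GK-S-30 arrays (-2.82 ± 0.51, adjusted p = 8.91e-04), without overlap. The chemokine Cxcl10 fell from 8.12, 9.04, 8.49, 8.0 and 8.0 to 6.60, 5.77, 6.97, 6.64 and 5.87 (-1.96 ± 0.26, adjusted p = 5.89e-05), with GK-Sham-PF arrays at 8.46 ± 0.34, and the ubiquitin-like Isg15 from 13.30 ± 0.52 to 11.40 ± 0.63 (adjusted p = 2.72e-04), with GK-Sham-PF arrays at 11.63 ± 0.36. Ifit3, above background on 2 of 5 GK-S-30 arrays, was at least 1.27-fold lower. Against this direction Ifit1 rose, from levels not above background on any Wistar array to 5.47, 6.22, 7.52, 7.55 and 5.85, at least 9.19-fold (adjusted p = 8.2e-07), with GK-Sham-PF arrays at 7.36 ± 0.24. Ifi27 rose from 11.04 ± 0.37 to 12.14 ± 0.11 and the signal carrier Stat2 by 0.76, and Stat2 lost its call when any 1 of 8 of the 10 arrays was left out (0.65, adjusted p = 0.0994 without GK-S-30 replicate 3). Irf9, which works with Stat2, was at -0.06 and not called. Ifit1 was the 1 gene of the list that was called with slide as a block.

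The promoters of these genes are shown for the letters GAAA followed after any 2 bases by GAAA again, the core of the interferon-stimulated response element, which STAT2 and IRF9 bind as parts of 1 complex. Of the 17 listed genes with a RefSeq entry 10 held it on either strand in the 250 bases before the start (58.8%), beside 3.29% of all 27457 promoters. The list includes both genes that fell and genes that rose. The 3 largest fitted decreases with an entry and a match are printed 5′ to 3′ on the gene's strand, with the element in capitals:
Rsad2 (chr6:48788121-48788370, minus strand): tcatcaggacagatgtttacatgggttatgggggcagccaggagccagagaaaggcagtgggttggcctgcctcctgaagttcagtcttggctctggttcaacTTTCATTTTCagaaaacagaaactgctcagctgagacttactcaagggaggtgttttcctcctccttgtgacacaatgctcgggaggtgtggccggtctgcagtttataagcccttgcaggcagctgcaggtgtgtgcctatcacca
Cxcl10 (chr14:15988816-15989065, plus strand): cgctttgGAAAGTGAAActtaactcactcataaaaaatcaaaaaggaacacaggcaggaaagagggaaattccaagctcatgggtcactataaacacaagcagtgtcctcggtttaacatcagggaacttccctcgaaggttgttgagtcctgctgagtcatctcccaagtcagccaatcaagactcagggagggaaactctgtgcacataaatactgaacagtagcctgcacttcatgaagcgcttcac
Ifit3 (chr1:241527076-241527325, plus strand): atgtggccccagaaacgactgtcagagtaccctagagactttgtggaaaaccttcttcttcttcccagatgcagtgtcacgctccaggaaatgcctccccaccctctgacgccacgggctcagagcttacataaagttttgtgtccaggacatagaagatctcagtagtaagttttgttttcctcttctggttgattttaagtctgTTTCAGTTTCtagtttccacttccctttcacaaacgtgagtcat

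Genes of the muscle and the matrix of the gut wall were higher in the RL. Of 15 smooth muscle contractile genes 12 rose, none fell and all 15 were positive (median 1.03). Calponin (Cnn1) was at 9.36, 8.73, 8.06, 8.59 and 8.63 in Wistar and 10.71, 10.6999, 11.24, 10.53 and 10.93 in GK-S-30 arrays (2.14 ± 0.29, adjusted p = 8.84e-05). The enteric actin Actg2 rose from 14.02, 13.01, 13.02, 13.44 and 13.21 to 15.17, 15.45, 15.54, 15.52 and 15.58 (2.12 ± 0.24, adjusted p = 1.84e-05), and GK-Sham-PF arrays were at 13.10 ± 0.57. Desmin (Des) rose by 1.78 and transgelin (Tagln) by 1.47, again with no overlap of the groups. The myosin chain Myh11 and the kinase Mylk, of the same contractile apparatus, were at 0.61 and 0.03 and not called. With slide as a block 13 of 15 were positive, with a median of 0.72, and none was called. The mean of the list, relative to the mean of all 15 arrays, ran from 0.59 to 0.85 in GK-S-30, from -0.58 to -0.01 in Wistar and from -0.76 to 0.25 in GK-Sham-PF arrays. Whether the amount of muscle in the piece bears on the other results was not tested. The letters of the CArG box, the element of smooth muscle promoters, were found in none of the 11 listed genes with a RefSeq entry and in 1.5% of all promoters.

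Of 26 matrix genes 16 rose and none fell (median 0.44). Timp1, an inhibitor of matrix proteases, was at 10.17, 10.50, 9.75, 10.42 and 8.52 in Wistar and 11.86, 11.69, 11.55, 12.05 and 12.15 in GK-S-30 arrays (1.99 ± 0.29, adjusted p = 1.67e-04). Tenascin C (Tnc), a matrix protein of remodeling tissue, rose from 6.87, 7.12, 6.75, 6.86 and 6.98 to 9.03, 8.86, 8.68, 8.95 and 8.65 (1.92 ± 0.16, adjusted p = 5.4e-07), with GK-Sham-PF arrays at 7.40 ± 0.39, and it was still called with slide as a block. Fibronectin (Fn1) rose by 1.22, lumican (Lum) by 1.34, the collagens Col1a1 and Col3a1 by 0.60 and 0.71 and the collagenase Mmp13 by 1.68, which was at 7.87, 4.63, 4.06, 7.11 and 7.07 in GK-S-30 arrays, high in 3 and at the Wistar level in the other two. Mmp13 lost its call when any 1 of 7 of the 10 arrays was left out (1.24, adjusted p = 0.117 without GK-S-30 replicate 1). Enteric nervous genes had no common direction, with 3 of 20 higher and 3 lower. The neuropeptides Npy, galanin (Gal) and Vip rose by 1.38, 0.91 and 0.83, and tyrosine hydroxylase (Th) fell by 0.81. GK-Sham-PF means of the 3 peptides, at 11.49 ± 0.26, 11.70 ± 0.29 and 12.74 ± 0.31, were close to the RL means of 11.82 ± 0.31, 11.75 ± 0.23 and 12.86 ± 0.31. The endothelial growth factor receptor Kdr fell by 0.79, 1 of 2 endothelial genes that fell beside 3 of 12 that rose.

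**Figure D4:**
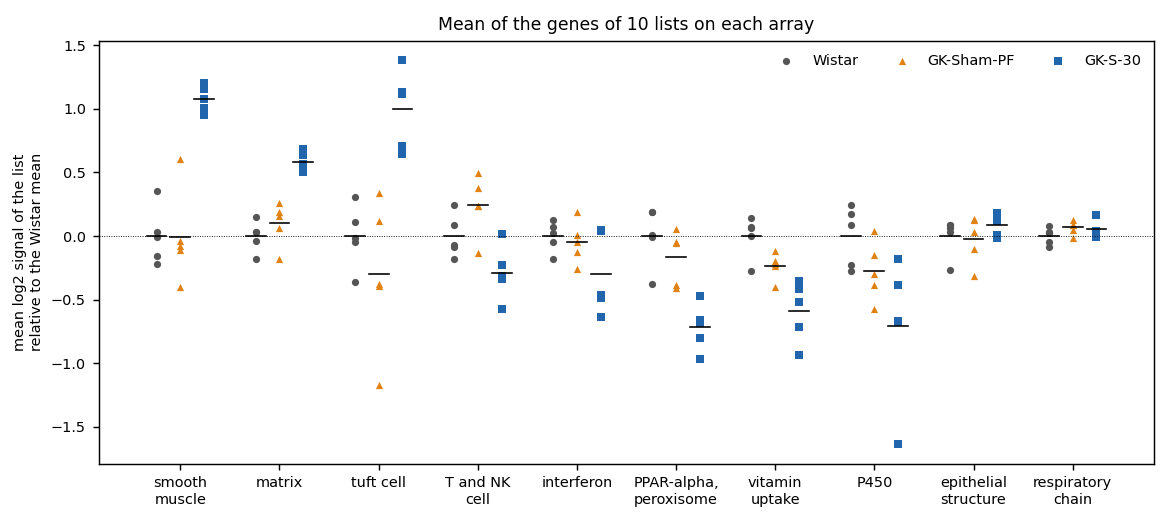
Mean log2 signal of the tested genes of 10 lists on each array, relative to the Wistar mean (vertical axis), with 1 point per array and the group mean as a bar, for Wistar (circles), GK-Sham-PF (triangles) and GK-S-30 (squares). The squares of smooth muscle and matrix lie above all circles and those of PPAR-alpha targets and vitamin uptake below them, while the points of the epithelial structure and respiratory chain lists overlap in all groups.

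Markers of tissues that lie next to the jejunum were examined, since the RL begins at the stomach. Of 12 gastric genes on the array 7 were tested and 1 fell, the mucin Muc6 (-0.98). None rose, with the trefoil peptide Tff2 at 1.68 and an adjusted p of 0.051. Of 9 tested pancreatic genes Prss1, with 1 of 5 Wistar arrays above background, was at least 4.65-fold higher, Amy2a3 rose by 2.34, and Ctrb1 fell by 1.06. Of 7 hepatocyte genes fibrinogen Fga rose by 3.06, Apoh, above background on no Wistar array, was at least 2.27-fold higher, albumin (Alb), above background on 2 of 5 GK-S-30 arrays, was at least 2.38-fold lower, and Serpina1 fell by 1.19. Of 5 tested red cell genes 2 rose, led by Alas2 (1.29), whose groups overlapped. Alas2 lost its call without Wistar replicate 4 (1.15, adjusted p = 0.0514). The share called was 14.3% of the gastric, 33.3% of the pancreatic, 57.1% of the hepatocyte and 40% of the red cell genes, beside 26.2% of all tested genes. These lists are short, with 5 to 9 tested genes each, and their part in other results was not tested. Of the remaining lists, 2 of 17 regional transcription factors were higher and 2 lower, no Hox gene was higher and 2 of 11 were lower, and no clock gene was higher and 2 of 16 were lower. Of 12 MHC class I genes 3 were higher, of 11 EGF receptor ligands and receptors 3 were higher and 1 lower, and 1 of 7 adipocyte and 1 of 14 immediate-early genes were lower.

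Several of the genes with the largest fold changes stood at the same level in GK-Sham-PF as in GK-S-30 rats, and others did not. Among the 12 largest fitted rises with separate arrays were St6galnac1, Duox2, RT1-Ba, Reg3g, Reg3b and Ifit1 above. The fitted difference rests on signal below background where a gene was dim in Wistar arrays, and the bounds of Ifit1 and of Crtac1, Spp1 and Ttpa below are smaller than the 18.7-fold rise of Gpx2, which is not among the 12. Mptx1, a secreted pentraxin of the gut mucosa, was at 2.41, 1.46, 1.41, 1.94 and 4.38 in Wistar and 13.03, 14.54, 12.58, 9.45 and 12.89 in GK-S-30 arrays, at least 509-fold higher (adjusted p = 4.92e-05), with 1 of 5 Wistar arrays above background. GK-Sham-PF arrays were at 1.53, 1.99, 5.46, 9.0 and 1.34, with 2 of 5 above background, and Mptx1 was also called between the 2 GK groups (adjusted p = 8.67e-04). Art2b, an ADP-ribosyltransferase of T cells and gut, was at 9.52, 9.33, 9.42, 9.55 and 9.63 on the Wistar arrays, 15.85, 15.80, 15.97, 15.57 and 14.997 on the GK-Sham-PF arrays and 15.15, 15.20, 15.28, 15.33 and 15.05 on the GK-S-30 arrays, so that the means of both GK groups stood at least 5.71 units above the Wistar mean (adjusted p = 1.27e-12). Spaca3, a relative of lysozyme, rose from 5.32 ± 0.42 to 10.80 ± 0.46, with 9.35 ± 0.50 in GK-Sham-PF rats (adjusted p = 1.56e-09 for GK-S-30 against Wistar).

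Crtac1, Ttpa, the carrier of vitamin E, and Spp1, the matrix and cytokine protein osteopontin, were not above background on any Wistar array. Crtac1 was at 7.23, 7.11, 7.08, 6.68 and 7.46 in GK-S-30 arrays, at least 13.8-fold higher than in Wistar rats (adjusted p = 4.85e-08), and at 5.43 ± 0.87 in GK-Sham-PF rats. Ttpa was at 6.47, 6.21, 5.72, 5.13 and 5.97, at least 5.98-fold higher (adjusted p = 1.05e-08), with GK-Sham-PF arrays at 4.27 ± 0.54. Spp1 was at 7.50, 4.07, 5.25, 5.54 and 7.49 in GK-S-30 arrays, 4 of 5 of them above background, and at least 6.28-fold higher (adjusted p = 4.64e-05), with GK-Sham-PF arrays at 4.71 ± 0.70.

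Among the 12 largest fitted falls were Akr1b8, Ugt2b15, Ephx2 and Slc27a2 above. Ugt2b35, a further glucuronosyltransferase, was at 11.15, 11.31, 10.06, 11.73 and 11.07 in Wistar and 5.50, 4.36, 3.15, 3.57 and 4.29 in GK-S-30 arrays (-6.89 ± 0.40, adjusted p = 1.15e-08), with GK-Sham-PF arrays at 6.01, 5.78, 5.67, 4.96 and 6.49. Cmahp, a gene of sialic acid hydroxylation, fell from 13.96, 14.41, 14.39, 13.87 and 14.03 to 8.23, 8.32, 8.01, 8.48 and 8.52 (-5.82 ± 0.19, adjusted p = 3.06e-11) and was at 8.75 ± 0.46 in GK-Sham-PF rats. The cell cycle phosphatase Cdc25a was at 9.02, 8.87, 8.80, 9.04 and 9.17 in Wistar arrays and above background on 1 of 5 GK-S-30 and no GK-Sham-PF array. By its 1 tested probe Cdc25a was at least 37.1-fold lower in the RL (adjusted p = 2.49e-07). Whether probe sequences match the RNA of GK and Wistar rats equally was not tested for this or any other gene.

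Slc22a7, a transporter of organic anions, and Slc27a5, which activates bile acids in liver, were at least 12.4-fold and 33.6-fold lower and were each above background on 1 of 5 GK-S-30 arrays. Slc27a5 was at 8.77 ± 0.48 in Wistar rats, 4.34 ± 0.21 in sham-operated GK rats and 3.61 ± 0.39 in GK-S-30 rats (adjusted p = 2.99e-10). Ubd, a ubiquitin-like modifier induced by cytokines, fell from 13.07, 13.23, 13.10, 12.97 and 12.87 to 7.99, 8.08, 9.32, 8.91 and 8.19 (-4.55 ± 0.28, adjusted p = 2.31e-08), with GK-Sham-PF arrays at 10.51 ± 0.59. The monooxygenase Fmo1 fell by 4.17 and Lypd8l2 by 4.10, the latter with 8.05 ± 0.28 in GK-Sham-PF against 8.66 ± 0.38 in GK-S-30 rats. In the files' annotation (build rn4) the probe of St6galnac1 lies at chr10:106872032-106872091, that of Duox2 at chr3:109059633-109059692, that of Reg3g at chr4:112418369-112418428 and that of Cmahp at chr17:47672498-47672557.

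**Figure D5:**
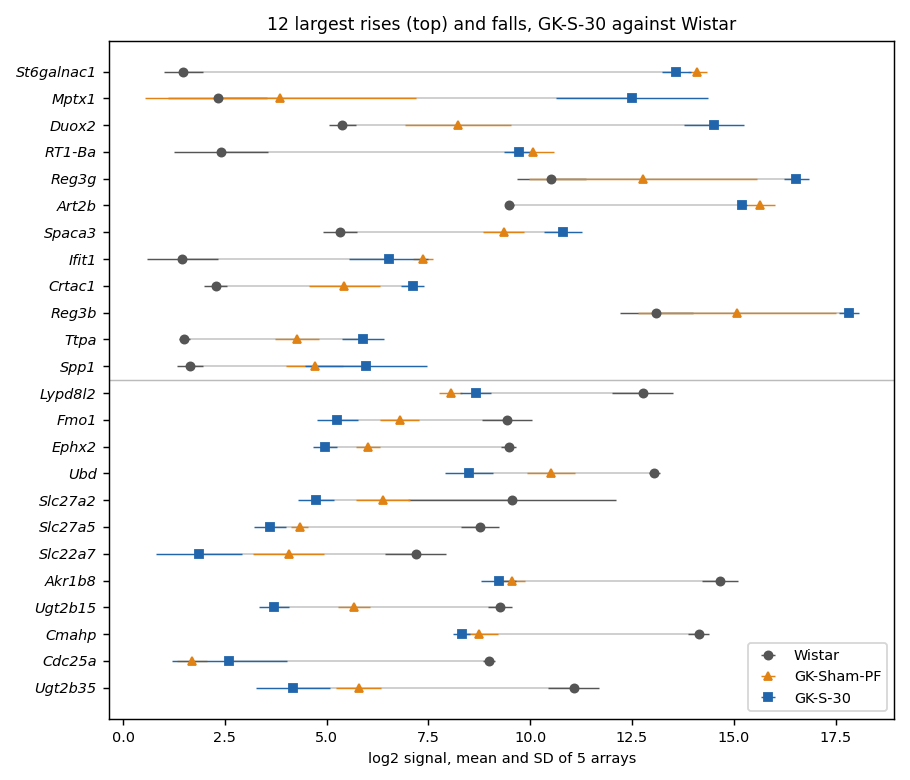
Mean and SD of the log2 signal (horizontal axis) of 5 arrays for the 12 largest rises (upper part) and the 12 largest falls (lower part) of GK-S-30 against Wistar, for Wistar (circles), GK-Sham-PF (triangles) and GK-S-30 (squares). The triangle lies next to the square in St6galnac1, RT1-Ba, Art2b, Akr1b8 and Cmahp, and next to the circle in Mptx1. Groups at background are drawn at their measured signal, so that the distance between marks is no fold there.

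Some genes were seen in only 1 of the groups. Well above background on all 5 GK-S-30 and no Wistar array were 20 called genes, of which 10 were above background on all 5 GK-Sham-PF arrays and 1 on none. Besides those above, Pigz, an enzyme of membrane anchors, was at least 5.21-fold and Otud7a, a deubiquitinase, at least 4.76-fold higher in the RL. These genes were chosen for being seen in 1 group, and their bounds are given as a description. The reverse held for 25 called genes, of which 6 were above background on no GK-Sham-PF array and 2 on all 5. The collagen Col24a1 was at 6.41, 6.32, 6.46, 6.42 and 6.59 in Wistar arrays and at least 7.44-fold lower in the RL. The sialyltransferase St8sia6 was at least 3.77-fold lower, Ugt2a3 at least 6.6-fold, the retinal dehydrogenase Aldh8a1 at least 4.66-fold, and the lactate dehydrogenase chain Ldhc at least 2.67-fold. St8sia6 and Ldhc were above background on no GK-Sham-PF array.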

How the data were processed

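Total RNA of each jejunal piece was labeled with Cy3 by the authors and hybridized to a 1-color Agilent rat array with 60-base probes, and the images were read with Feature Extraction 10.7. The deposited file of each array holds the processed signal as an intensity on a linear scale, already background-subtracted by that software. The deposited series matrix holds log2 values that the authors had quantile-normalized, which served as an alternative. Here the log2 of the processed signal was quantile-normalized over the 15 arrays after control spots and outlier flags were left out, and spots of a probe were averaged. Of 41012 probes, 18510 had no gene symbol and were left out. Testing needed a probe to exceed background clearly on all 5 arrays of 1 or more groups, and the brightest tested probe stood for its gene.

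A model of 3 groups without covariates was fitted with limma 3.58.1 in R 4.3.3, with Benjamini-Hochberg adjustment over 13023 genes. Figures were drawn with Python 3.11.15, pandas 2.3.3 and matplotlib 3.10.9. The scripts were tested on simulated data. The number of arrays, 5 per group, limits the precision, and no sequencing depth applies. Groups follow the sample titles. The comparison, the 62 gene lists and their members were chosen with earlier results of these data known. Genes were named by rule: the 12 largest called rises and falls with separate arrays and a gene symbol of a known gene, up to 4 called members of a list in each direction with further members where a group is described, and up to 6 genes in each direction seen in 1 group only. Some genes that the rule selects are not reported here. Other scalings, background correction, dim-probe filters, probe rules, slide and replicate blocks, the methods' one-way model with Tukey's correction and leaving out each array were tried. The authors' own fold changes and p-values were not used.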

Additional observations from a re-analysis of the deposited data

Results flagged for a closer look

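In 26 of the 464 sets of 5 values (232 genes in each of the 2 groups), 1 array lay apart from the other 4 by Dixon's criterion (critical value 0.71 of the range). Chance flags about 1 in 20 such sets. Wistar replicate 3, the dimmest array, was the array apart in 10 of them. Its log2 signal was 11.67 for Aldoa, 3.99 for Fads1, 12.62 for Fdps and 15.82 for Fth1. For Khk it was 13.06, for Pla2g2a 15.19, for Scd2 7.99, for Stat2 5.11, for Tfrc 11.19 and for Th 4.97. Wistar replicate 1 was apart in 3 genes, with 2.90 for Akr1b10, 9.18 for Angptl4 and 2.33 for St6galnac1. Wistar replicate 2 was apart in 4 genes, with 3.02 for Ifit1, 3.55 for S100a8, 6.16 for S100a9 and 11.42 for Tsc22d3.

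In GK-S-30 rats replicate 1 was apart in 5 genes, with 11.88 for Acsl3, 4.38 for Fmo1, 11.34 for Gal, 8.27 for Srd5a1 and 13.58 for Tagln. Replicate 2 was apart for Sucnr1 at 6.73, replicate 3 for Slc22a7 at 3.76 and Stat2 at 7.28, and replicate 4 for Clca1 at 15.95.

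Probes without a gene symbol were not part of the comparison of genes. Of these, 35 were well above background on all 5 GK-S-30 arrays and on no Wistar array, and 40 on all 5 Wistar arrays and on no GK-S-30 array.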

How the results depend on the processing

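The count of 3414 called genes stayed within 1.5 times under 75th percentile scaling (3441), normexp background correction (3246), the authors' matrix values (3421), no filter on dim probes (3280), a filter on both groups (3138), the mean of a gene's probes (3342), only the 10 arrays (3128), slide as a random block (3776 with 15 and 5006 with 10 arrays, with consensus correlations of -0.0415 and -0.159, below 0, so that these fits do not correct for slide) and the methods' one-way model (3786 without and 2277 with Benjamini-Hochberg adjustment). With that adjustment 1072 genes were called higher, and 48 of the named genes lost their call. Normexp correction, run with an offset of 50 added to the signal, left 294 genes with at least a 2-fold change. Its median SE was 0.09, beside 0.15 in the main fit, and the part of the offset in this was not tested. Slide as a fixed block left 237 calls, 139 higher and 98 lower, of which 226 were at least 2-fold, with larger SEs, since no slide held both groups. The fold changes under that block rest on Wistar replicate 1 and GK-S-30 replicates 1 and 2, set against the GK-Sham-PF arrays of their slides. Fcrla (0.52), Hmox1 (-0.27) and Neurog3 (-0.12) changed sign under the block and were not called. Leaving out each array gave 2826 to 3300 calls, 1358 to 1537 higher, 1468 to 1781 lower and 702 to 759 of at least 2-fold. It ended the call of 27 of the 229 named genes that were called. Equal replicate numbers did not pair the samples, with correlations of deviations from -0.202 to 0.122, and a replicate block gave 2861 calls and ended 13 of the named calls. Probes near background limit the measured folds of the genes given as bounds.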
